A study of Solanum lycopersicum with 6 samples.

Results

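Peaks of accessible chromatin were described on the tomato sequence that build SL4.0 does not place on any chromosome. The members are all peaks of the deposited list whose sequence name ends in ch00, and they number 521 of 80696 peaks in the list. The remaining 80175 peaks lie on chromosomes 1 to 12. The rule for members thus uses their place in the assembly and no measured value, although it was set with earlier results of these data known.

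The list comes from ATAC-seq, in which a transposase inserts sequencing adapters into DNA that is not wrapped in nucleosomes, so that places with many insertions are called as peaks. Nuclei came from inflorescences of tomato (Solanum lycopersicum) plants of the M82 background that carry the mutant allele anantha-e1546. Plants were kept under long days, with 16 h of light, in a greenhouse. ANANTHA is an F-box gene needed for the floral fate of meristems, and the mutant makes meristems in place of flowers, which is why the tissue is rich in meristem cells. The 6 samples are biological replicates of 1 group, each from 1 g of tissue, and there is no wild type or other control. A single list was deposited for all replicates together, so there is no value per replicate, no replicate error and no test between groups. The list holds no read counts, so the depth of each sample is unknown.

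Unplaced sequence is what is left when the contigs of an assembly are ordered into chromosomes. In plants it often holds repeats, tandem arrays and copies of organelle DNA, since these are hard to order. In tomato builds such contigs are joined end to end into an artificial sequence, so that neighbours on it need not be neighbours in the genome. Contig borders are not in the list. The bases and annotation of SL4.0 were not used here, and which genes, repeats or organelle copies underlie these peaks was not analysed here.

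Each value below is set beside the 12 chromosomes, with their mean ± SD and their range. The unplaced sequence is 1 sequence among 13, and an exact permutation over 13 sequences cannot give a p below 0.0769. No p is therefore given, and differences are described by whether the value lies inside or outside the range of the 12 chromosomes. Intervals around counts, shares and medians are at 95% and cover counting error only, since neighbouring peaks are not independent.

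Unplaced sequence had fewer peaks per Mb than any chromosome. From its first base to the end of its last peak it spans 9.61 Mb and carries 54.2 peaks per Mb (exact Poisson interval 49.6 to 59.0). The chromosomes carried 105.3 ± 22.8 (SD, n = 12), with chromosome 12 lowest at 81.2 and chromosome 2 highest at 151.9. The share of the sequence under peaks was less far apart. It was 8.49% on the unplaced sequence and 10.5% ± 2.11 on the chromosomes (SD, n = 12). Chromosome 12 was lower still in this share, at 8.29%, so the unplaced sequence lay inside the chromosomes' range. The mean peak on the unplaced sequence was wider, at 1567 bp against 997 ± 29.6 bp (SD, n = 12).

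**Figure D1:**
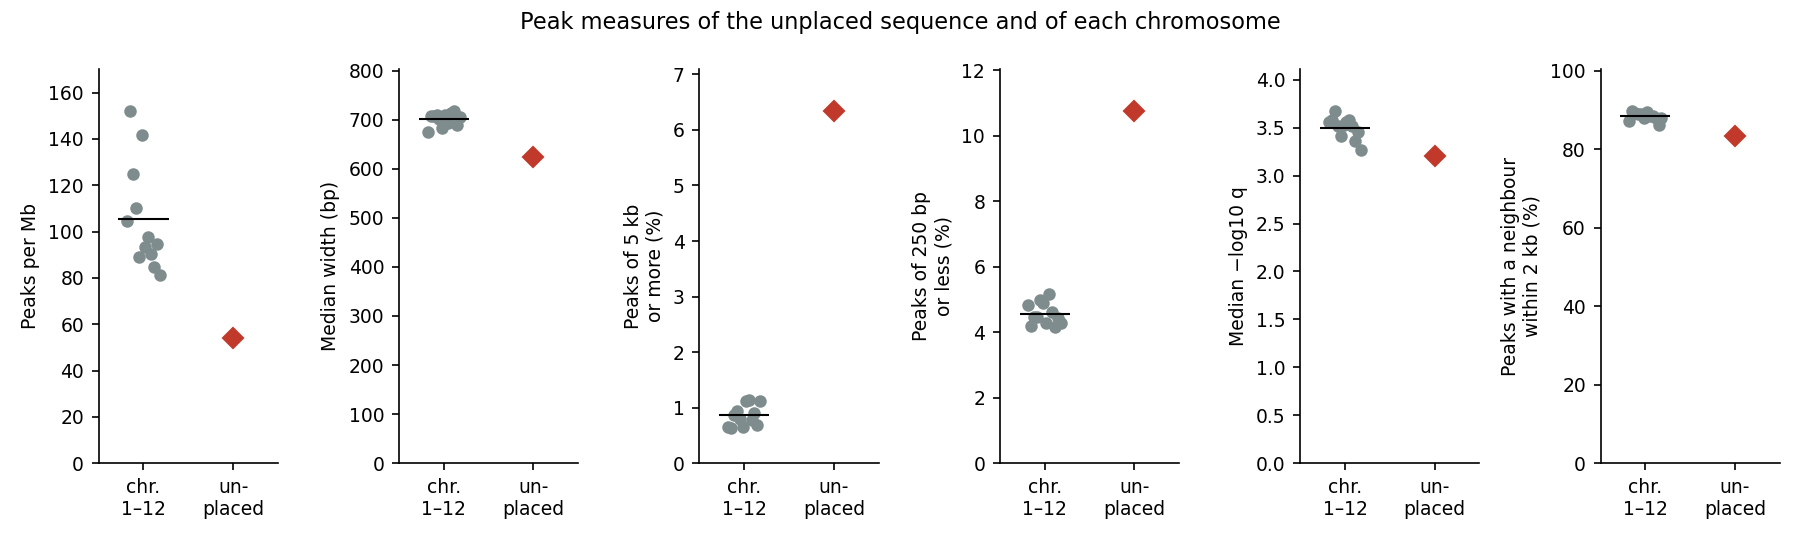
Each panel gives 1 measure of peaks on a linear axis from 0, with a grey point for each of chromosomes 1 to 12, a black line for their mean and a red diamond for the unplaced sequence. In all 6 panels the diamond lies outside the 12 grey points, above them for the shares of peaks of 5 kb or more and of 250 bp or less, and below them in the other 4.

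Widths spread in both directions. The median width was 624 bp (order-statistic interval 561 to 689 bp), below all 12 chromosomes, whose medians ran from 676 to 717 bp. The quartiles were 361 and 1307 bp, against 447 ± 5.91 and 1186 ± 33.1 bp on the chromosomes (SD, n = 12). The lower quartile was thus below and the upper quartile above those of all 12 chromosomes. The narrowest peak was 140 bp wide, from 620247 to 620386.

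Narrow peaks were more frequent than on any chromosome. Widths of 250 bp or less were found for 56 peaks, or 10.7% (exact binomial interval 8.22% to 13.7%), against 4.15% to 5.17% on the chromosomes. Middle widths were correspondingly rarer. Widths over 500 and up to 1000 bp made up 27.8% of unplaced peaks and 35.8% to 38.6% of those on a chromosome. Widths over 1000 and up to 2000 bp made up 13.2%, against 21.2% to 22.9%.

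Wide peaks were also more frequent than on any chromosome. Widths of 5 kb or more were found for 33 peaks, or 6.33% (exact binomial interval 4.40% to 8.78%), whereas the chromosomes had 0.86% ± 0.19 (SD, n = 12), with 1.14% on chromosome 8 as their highest. These 33 peaks held 44.4% of all bases under unplaced peaks, against 4.27% to 8.32% on a chromosome. The contrast grew with width. Widths of 10 kb or more were reached by 13 unplaced peaks (2.50%) and by 57 peaks on all chromosomes together (0.071%). Of the 5 peaks of 20 kb or more in the whole list, 4 were unplaced, although the unplaced sequence holds 0.646% of the list's peaks. The share of wide peaks stayed above all 12 chromosomes without any 1 Mb bin of the unplaced sequence, from 5.35% to 7.33%.

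**Figure D2:**
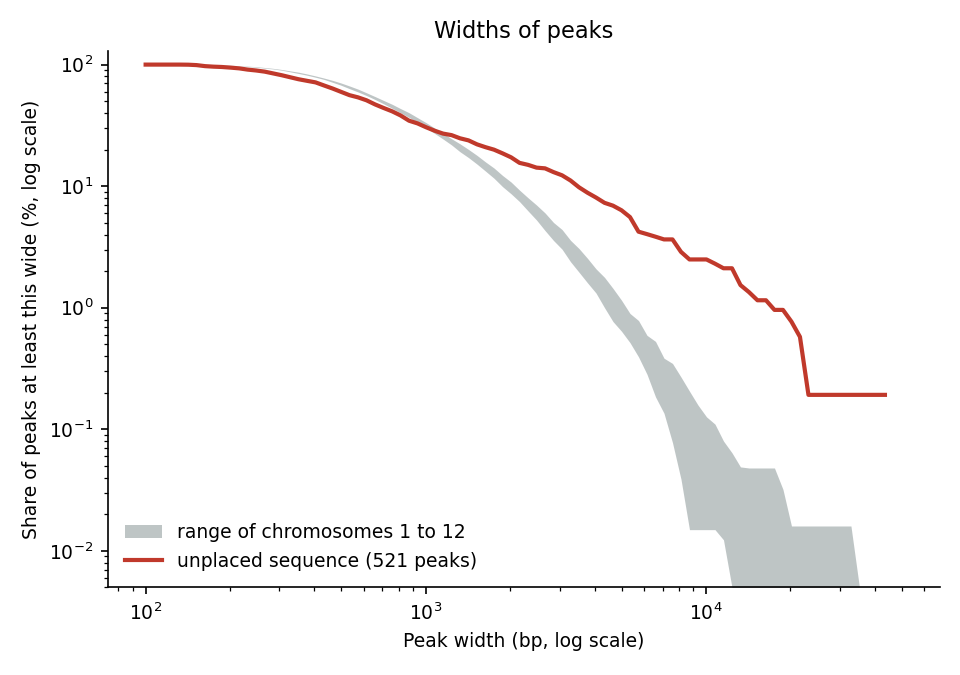
Share of peaks that are at least as wide as the value on the x axis, both on log scales, for the unplaced sequence (red line) and as the range over chromosomes 1 to 12 (grey band). The red line runs below the band at widths between 250 bp and 1 kb and above it beyond 2 kb, where 17.3% of unplaced peaks remain against 8.74% to 10.9% on the chromosomes.

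The widest peak of the list ran from 3362280 to 3408422 and spanned 46143 bp. It had a −log10 q of 11.5. No peak on a chromosome was wider, the widest there being 33327 bp. The next were a peak of 23073 bp from 4682973 to 4706045 with a −log10 q of 8.51 and a peak of 22290 bp from 9075166 to 9097455 with 10.2. The fourth and the fifth were close to the widest. They ran from 3336808 to 3357789 (20982 bp, −log10 q 12.2) and from 3481413 to 3500295 (18883 bp, −log10 q 11.3). All 5 were at the score's cap of 1000, and each was weaker than 5225 or more chromosomal peaks. The wide peaks were not confined to this stretch. Of the 33 of 5 kb or more, 8 lay between 3000001 and 4000000 and 7 between 1000001 and 2000000, while the bins from 5000001 and from 7000001 held none.

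Peaks separated by 500 bp or less were joined into runs, and 16 runs of 10 kb or more were found. They held 50 peaks and 39.7% of the bases under unplaced peaks, against 6.76% to 10.8% on a chromosome. The longest, around the widest peak, spanned 61482 bp from 3362280 to 3423761 with 7 peaks that covered 99.3% of it. The second spanned 33912 bp from 4682973 to 4716884, in 2 peaks only 34 bp apart. The third ran over 24457 bp from 3185484 to 3209940. Runs were nearly gapless, with 90.8% to 100% of their length covered, and 7 of the 16 were 1 peak. Per Mb there were 1.66 runs, above all 12 chromosomes, which had 0.752 ± 0.172 (SD, n = 12). Of 73 chromosomal windows of the same length, 9.61 Mb, 8 had more than 16 runs, up to 26, while the 10 windows nearest in number of peaks had 0 to 5.

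The upper part of the distribution of −log10 q was lower than on the chromosomes, and its lower part was not. Over all 521 peaks the median −log10 q was 3.21 (order-statistic interval 2.98 to 3.36), below the 12 chromosomes, which had 3.50 ± 0.11 (SD, n = 12). Chromosome 12, the lowest, had 3.26 and lay within that interval. Without the bin from 2000001 to 3000000 the unplaced median was 3.28, above chromosome 12. The upper quartile was farther apart, at 4.84 against 6.73 ± 0.20 (SD, n = 12). The lower quartile, by contrast, was slightly above all 12 chromosomes, at 2.305 against a highest value of 2.300. A q at or below 0.01 was carried by 84.07% of unplaced peaks (exact binomial interval 80.6% to 87.1%), above the 80.7% to 83.7% of the chromosomes, whose values all lie within the interval. A −log10 q over 10 was carried by 33 peaks, or 6.33% (exact binomial interval 4.40% to 8.78%), against 10.4% to 12.8% on a chromosome. All q values are those the authors deposited, and they rank peaks within this list.

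In classes of equal width, unplaced medians were below those of the chromosomes from about 500 bp upward, by little up to 1 kb and by more beyond. Up to 250 bp the unplaced median −log10 q was 2.98, a little above the chromosomes' 2.70 to 2.85, and over 250 and up to 500 bp it was 2.48, inside their 2.30 to 2.53. Over 500 and up to 1000 bp it was 2.68, below their 2.87 to 3.32. Over 1000 and up to 2000 bp it was 3.87 (69 peaks), against 6.19 to 6.94. Over 2000 and up to 5000 bp it was 5.02 (57 peaks), against 9.74 to 10.6. At 5 kb or more it was 8.09, from 3.08 to 18.3 in single peaks, against medians of 12.6 to 15.5. Without any 1 Mb bin in turn, these last 3 medians moved to between 3.46 and 4.45, between 4.63 and 5.34, and between 7.54 and 8.38, all below the range of the chromosomes. Spearman's rho between width and −log10 q was 0.42 over the 521 peaks and 0.56 to 0.58 on each chromosome, a description over peaks of 1 list that share libraries and depth.

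**Figure D3:**
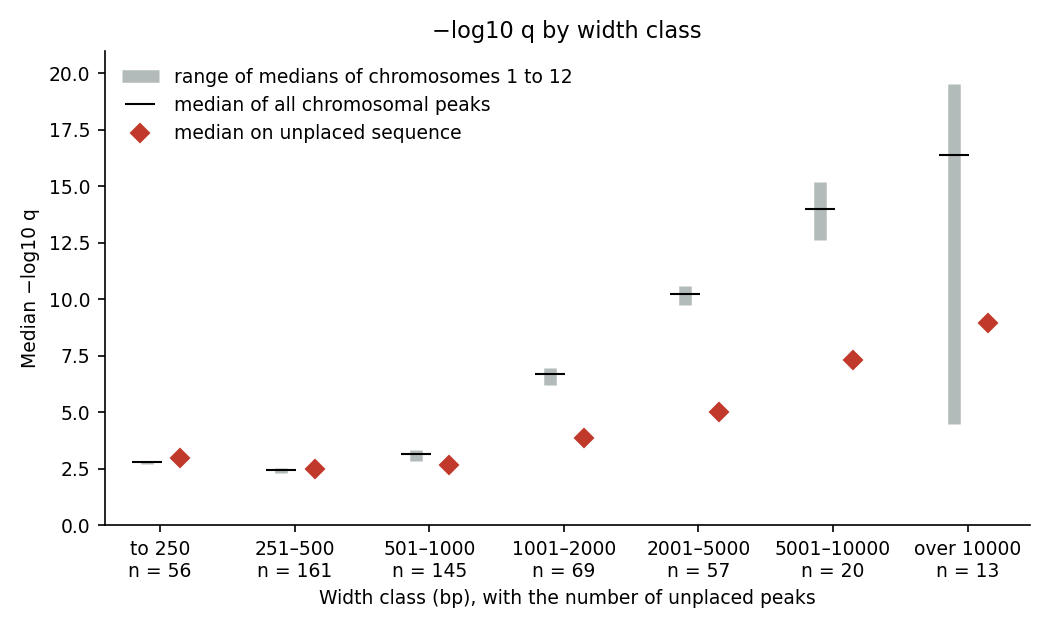
Median −log10 q (linear axis) in 7 classes of peak width for the unplaced sequence (red diamonds, with the number of peaks under each class), for all chromosomal peaks (black dashes) and as the range of the medians of single chromosomes (grey bars). From 501 bp to 10 kb the diamonds lie below the grey bars. In the class over 10 kb, where all chromosomes together have 57 peaks, the bar is long and includes the diamond.

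The 3 strongest peaks of the whole list were also unplaced. A peak of 680 bp from 5063558 to 5064237 had a −log10 q of 57.6. A peak of 959 bp from 3721098 to 3722056 had 48.1, and a peak of 2089 bp from 5529709 to 5531797 had 45.7. The strongest chromosomal peak had 25.1, so the third of them was still 20.7 higher. Within a chromosome, by contrast, the strongest peak exceeded the next by 0.03 to 3.26. The values were not continuous with the rest of the unplaced peaks either, since the fourth had 21.9, which 53 chromosomal peaks exceeded.

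Along the unplaced sequence the 3 lay in sparse surroundings, although neighbours on it need not be neighbours in the genome. Within 50 kb of the strongest there was 1 other peak, the fourth strongest, of 198 bp from 5067975 to 5068172, at a gap of 3737 bp. Within 50 kb of the second there were 2, and the nearest of them was the ninth strongest, of 221 bp from 3700320 to 3700540 with a −log10 q of 16.3, at a gap of 20557 bp. The third had none within 50 kb, its nearest neighbour being 92640 bp away. The second and the third are thus among the 15 unplaced peaks that lie over 20 kb from any other, a class whose median −log10 q was 2.59.

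Of the narrow neighbours within 50 kb, 2, the fourth and the ninth strongest, were also unlike chromosomal peaks of their width. On the chromosomes, 3665 peaks were 250 bp wide or less, and the strongest of them had a −log10 q of 10.05. These 2 exceed it, at 21.9 and 16.3. The other neighbour of the second strongest peak, of 149 bp from 3694868 to 3695016, did not, at 4.19. The 2 were picked out after their values were seen.

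**Figure D4:**
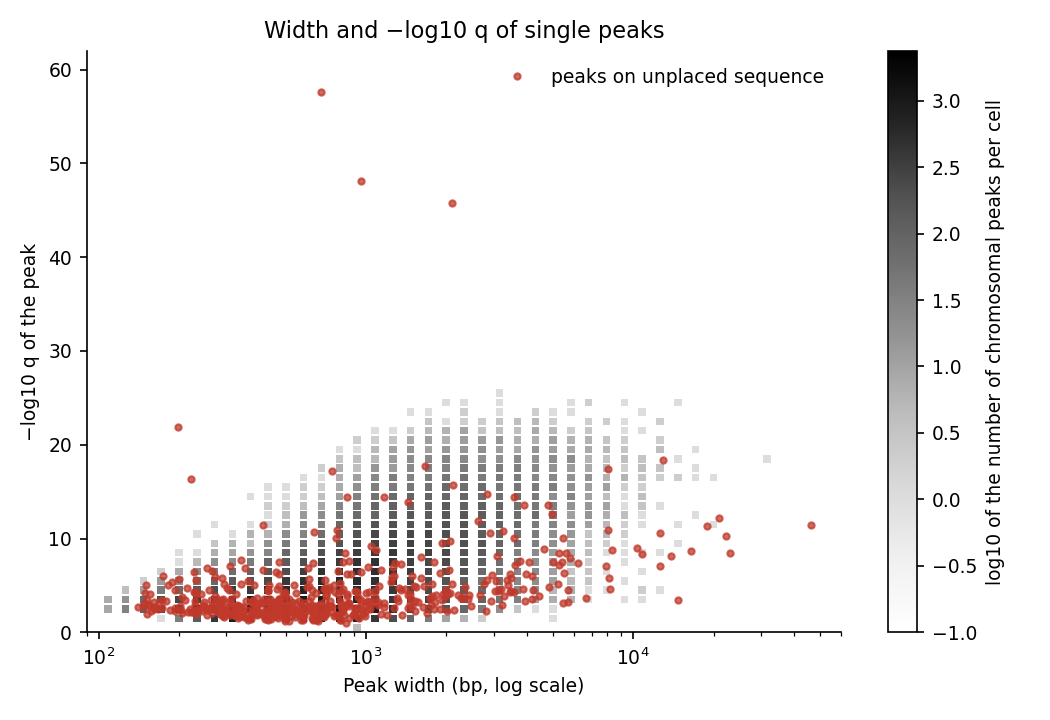
Peak width (log scale) against −log10 q (linear scale) for each unplaced peak (red points) and for chromosomal peaks counted in cells of a grid (grey, darker for more peaks). At the top, 3 red points between 680 and 2089 bp stand above 45, 2 red points near 200 bp lie above the grey cells of that width, and most red points of 2 kb or more lie low among the grey cells of their width.

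The other members of the 10 strongest were within the chromosomal range. A peak of 12973 bp from 680075 to 693047 had a −log10 q of 18.3, and a peak of 1663 bp from 3245949 to 3247611 had 17.8. Near the end of the sequence, a peak of 8063 bp from 9185674 to 9193736 had 17.4 and a peak of 745 bp from 9252887 to 9253631 had 17.2. The tenth, of 2122 bp from 610966 to 613087, had 15.8. These were in dense surroundings, with 11 to 32 other peaks within 50 kb. The weakest unplaced peak, from 7771161 to 7772000, had a −log10 q of 1.03.

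The score, which has a cap of 1000, was at the cap for 335 peaks, or 64.3% (exact binomial interval 60.0% to 68.4%). This was above all 12 chromosomes, which had 61.5% ± 1.35 (SD, n = 12), although the highest, 63.3% on chromosome 3, lay within the interval. The order was not stable. Without the first 1 Mb the share was 60.6%, above 2 chromosomes, and without the last bin it was 62.1%, above 8. With peaks within 100 bp merged on all sequences it was 65.1%, above 4. The cap did not follow −log10 q alone. Unplaced peaks at the cap had a median −log10 q of 4.28 and a lowest of 1.87. Those below the cap had a median of 2.08 and a highest of 4.65. Among unplaced peaks of 250 bp or less, 89.3% were at the cap, against 44.8% of those over 500 and up to 1000 bp. For the peaks below the cap, the score times the width divided by 1000 was 200.2 or more. A peak under 200 bp cannot have such a product below the cap. All 28 unplaced peaks under 200 bp were at the cap, as were all 1250 on the chromosomes.

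Peaks were spread unevenly along the sequence. The first Mb held 112 peaks, the most of the 9 full 1 Mb bins, and the last bin, of 0.615 Mb from 9000001 to 9614780, held 94, or 152.9 per Mb. The sparsest bin, from 4000001 to 5000000, held 9 peaks, of which 3 were 5 kb or wider. In bins of 250 kb, 7 of 39 held no peak. The densest, from 500001 to 750000, held 69 peaks, and the 5 densest together held 42.6% of all. Joining peaks over gaps of up to 20 kb gave 56 groups. Of these, 21 had 10 peaks or more, and they held 80.6% of the peaks in 16.7% of the span. The largest had 106 peaks in 359.9 kb, from 389722 to 749613. Chromosomal peaks were spread unevenly as well. The 766 full 1 Mb bins of the chromosomes had a median of 40 peaks and quartiles of 16 and 168. The unplaced bins, with the shorter last bin among them, had a higher median of 56. Of the chromosomal bins, 31.2% held more peaks than the densest unplaced 1 Mb bin. The 250 kb bins and the groups have no chromosomal values beside them here.

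Between the groups lay long stretches without a call. No peak was called in the first 241519 bases. The longest stretch between peaks was 630.2 kb, from 6174337 to 6804532, followed by 509.9 kb from 1084097 to 1593954 and 479.6 kb from 4192923 to 4672513. Stretches of over 100 kb numbered 22 and made up 62.6% of the span, above the 37.6% to 58.1% of the chromosomes. These shares are not matched for the higher peak density of the chromosomes, and are not given here for windows of like density. The longest stretch was nevertheless shorter than the longest of every chromosome, the lowest of which was 987453 bp. The chromosomes are the longer sequences, and in the 73 windows the longest stretch ran from 93.3 kb to 2243 kb, a range that holds the unplaced value.

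Close neighbours were somewhat fewer than on the chromosomes. A neighbour within 2 kb, edge to edge, was present for 83.5% of peaks (exact binomial interval 80.0% to 86.6%), against 88.4% ± 0.98 (SD, n = 12) and a lowest value of 86.3% on chromosome 11, just inside the interval. A neighbour within 100 bp was present for 30.7% (exact binomial interval 26.8% to 34.9%), against 37.8% to 42.2%. The median gap was 858 bp, longer than the 632 to 832 bp of the chromosomes. These values are not matched for the higher peak density of the chromosomes. In the 10 windows nearest in number of peaks the median gap was longer than the unplaced one, at 880 to 1543 bp.

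The same 73 windows were used to compare stretches of equal length and like density. Windows had 83 to 3084 peaks with a median of 352, so the 521 unplaced peaks were within their range and above the median. The 10 windows nearest in number of peaks had 395 to 634. In those 10, a neighbour within 2 kb was present for 78.8% to 84.9% of peaks and the median −log10 q was 3.02 to 3.76, and both unplaced values lay inside these ranges. The unplaced share with a neighbour within 2 kb was above that of 8 of the 10, and the unplaced median −log10 q above that of 7. Of the 10 windows, 8 had fewer peaks than the unplaced sequence. These 2 values, low beside whole chromosomes, were thus not low beside the windows of like density.

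Some other measures lay outside the range of all windows or of the 10 of like density. The 33 peaks of 5 kb or more exceeded every window, of which the highest had 27, and the 10 windows of like density had 1 to 6. The share of narrow peaks, 10.7%, exceeded the 7.23% of the highest window. The share of sequence under peaks, 8.49%, exceeded the 3.82% to 6.60% of the 10 windows of like density. Of all 73 windows, 24 were higher in this share. A −log10 q over 10, carried by 6.33% of unplaced peaks, was more frequent in all 10 of those windows, from 9.68% to 15.5%, and 1 of the 73 windows was lower. A neighbour within 100 bp was also less frequent than in all 10, which had 34.0% to 40.1%, while 18 of the 73 were lower. Spearman's rho between width and −log10 q, 0.42, was below all 10, which had 0.50 to 0.59. Of the 73, 2 were lower, in a range of 0.39 to 0.64. The median width, 624 bp, was below the 645 to 764 bp of the 10, while 3 of the 73 were lower, down to 542 bp.

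**Figure D5:**
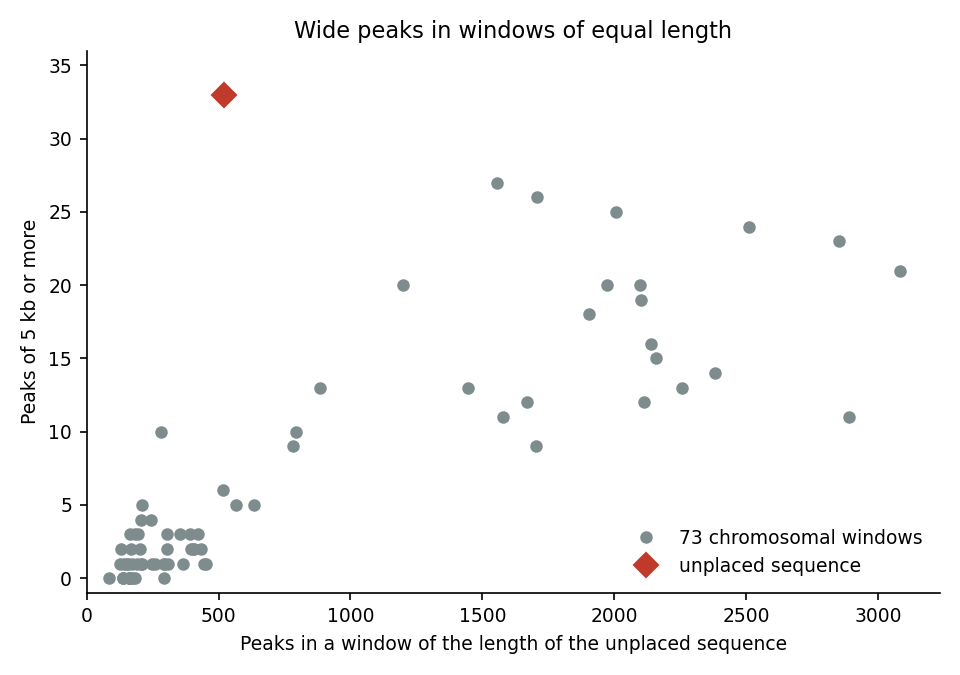
Number of peaks (x axis) and of peaks of 5 kb or more (y axis) in 73 chromosomal windows of 9.61 Mb (grey points) and on the unplaced sequence, which has the same length (red diamond). The diamond, at 521 and 33, lies above all windows, including those with over 2000 peaks.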

How the data were processed

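Reads were paired, of 50 bases, on a MiSeq, from 100000 nuclei per reaction, per the labels' protocols. Genrich 0.6 is listed in the submitters' processing notes beside BWA, Trimmomatic, SAMtools, Picard and bedtools, with no roles or order given. The deposited file's name gives 0.5 for q and 30 bp for a gap, and build SL4.0 is read from its sequence names. The treatment of duplicates, of organelle reads and of reads that map to several places is not given in the sources used here. The authors deposited a whole-number score per peak with a cap of 1000, and −log10 q values inside the peak names. The list does not say to which base of a peak its q belongs.

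Widths, gaps, runs, 1 Mb bins and windows of equal length were computed here, with 1-based positions. The span runs to the end of the last peak, since sequence lengths are not in the list. Intervals are exact Poisson, exact Clopper-Pearson and order-statistic. Functions were tested on simulated data. Alternatives were limits on q of 0.05 and 0.01, merging within 100 bp, other distances, and leaving out each bin or chromosome. Peaks named are the 10 strongest, the 5 widest, the longest runs and gaps and the extreme bins. The members and measures were chosen with earlier results of these data known. The windows, width classes, groups over 20 kb and surroundings of strong peaks were added after their values were seen. Peak sequences were to be shown only with an SL4.0 genome, and none was used here. The software was scipy 1.17.1, numpy 2.4.6, matplotlib 3.10.9 and pandas 2.3.3 under Python 3.11.15.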

Additional observations from a re-analysis of the deposited data

How the results depend on the processing

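With a q at or below 0.01, 438 unplaced peaks were left, at 45.6 per Mb. Their median −log10 q was 3.53 and 76.03% were at the score cap. Merging within 100 bp left 430, at 44.7 per Mb, with 78.6% having a neighbour within 2 kb. This last share was 92.9% for 5 kb and 74.7% for 1 kb, by construction. At the cap there were 335 peaks. Leaving out each 1 Mb bin in turn gave 47.4 to 59.4 peaks per Mb, median widths of 597 to 641 bp, a median −log10 q of 3.02 to 3.28 (the highest, without the bin from 2000001, is above chromosome 12), 60.6% to 67.6% at the cap, 81.9% to 84.8% with a neighbour within 2 kb, 25 to 33 peaks of 5 kb or more and 11 to 16 long runs. The count of peaks stronger than any chromosomal peak was 1 to 3, and 1 without the bin from 5000001, which holds 18 peaks. Long runs numbered 15 when joined over 100 bp and 22 over 1000 bp. Density, median width and median −log10 q stayed below, and the shares of narrow and of wide peaks above, all 12 chromosomes with a q at or below 0.01 and after merging. With a q at or below 0.01, the unplaced share with a neighbour within 2 kb fell to 82.2%, but it was then above 1 chromosome. The chromosomes had a mean of 83.4% and a lowest value of 81.5% at that limit. No paired analysis was possible because there is 1 group and 1 list for all replicates, and no replicate could be left out. Depth is unknown, so the absence of a peak is only the absence of a call.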
